A study of Mus musculus with 21 samples.

Results

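The deposited arrays of epididymal fat from mice without JNK1 and from wild-type mice were compared over all genes. The members are the 8 fat samples among the 21 samples of the series, 4 titled as JNK1 knockout (KO) and 4 as wild type (WT), and they were chosen by these labels alone. Per the labels, both groups were male C57Bl6/J mice of 45 weeks that had a high-fat diet from 5 to 44 weeks of age, so no fat sample comes from a lean diet. Skin and liver of the same genotypes make up the remaining 13 samples and enter only where the fat difference is set against theirs. The labels name the gene but not which part of it was removed or how, and they do not say whether each array is another mouse or a pool, so p-values measure the spread between these samples, which may be technical. Total RNA was labelled with Cy3 from 0.2 ug and hybridised to single-colour Agilent arrays. The fat is the pad beside the epididymis, a common visceral depot of male mice.

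JNK1, encoded by *Mapk8*, is a stress-activated kinase. Upstream kinases of the MAP3K family switch on *Map2k4* and *Map2k7* kinases, these phosphorylate the JNKs, and the JNKs phosphorylate c-Jun and related subunits of the AP-1 transcription factor. In obese fat the pathway is known for its activity in adipocytes, where it can act on insulin receptor substrates, and in the macrophages that gather around dying adipocytes. The comparison asks which transcripts differ in the fat pad of such mice.

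Values are the authors' deposited log2 intensities, differences are KO minus WT on that scale, and a gene was called when its Benjamini-Hochberg adjusted p in limma, a linear model with moderated errors, was below 0.05. A gene was tested when its probe was well above background on at least 3 of the 7 fat scanner files used. That left 15268 genes, and the scanner software set 46.68% to 57.22% of all probes on a fat array well above background.

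Several fat arrays stood apart from the others before any comparison. On KO 4, 186 of the genes lay more than 3 log2 units below the median of the other fat arrays, against 1 to 35 genes on each other array, and its correlation with other fat arrays over genes was 0.932 to 0.955. Adipocyte markers were present, with 23 or 24 of the 24 listed markers well above background on each of the 7 scanner files. *Adipoq*, which encodes adiponectin, lay between 16.36 and 17.22 on all 8 arrays. Transcripts of the neighbouring epididymis were high on WT 1 and WT 3 and, over the list, on KO 2. *Crisp1*, which encodes a secreted epididymal sperm-coating protein, was 13.93 on WT 1 and 13.48 on WT 3, 7.06 on WT 4 and 3.96 on WT 2, and it was 3.503, 7.47, 4.77 and 3.98 on KO 1 to 4. Of 30 epididymal markers on the array, between 2 (KO 1 and KO 4) and 21 (KO 2) were well above background, and 9 were tested. Smooth muscle genes moved with them on the WT side, since *Cnn1*, a calponin of smooth muscle, was 14.44 on WT 1 and 13.40 on WT 3 and 7.84 to 10.02 on the other 6 arrays. Mesothelial markers, by contrast, averaged 10.51, 10.42 and 10.37 on KO 1, KO 2 and WT 1 and 8.90 and 8.69 on KO 3 and KO 4. The part of these arrays and cells in the results was not tested, and where list counts shifted without KO 1, KO 4 or the pair WT 1 and WT 3, such counts are given beside most of the lists described.

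**Figure D1:**
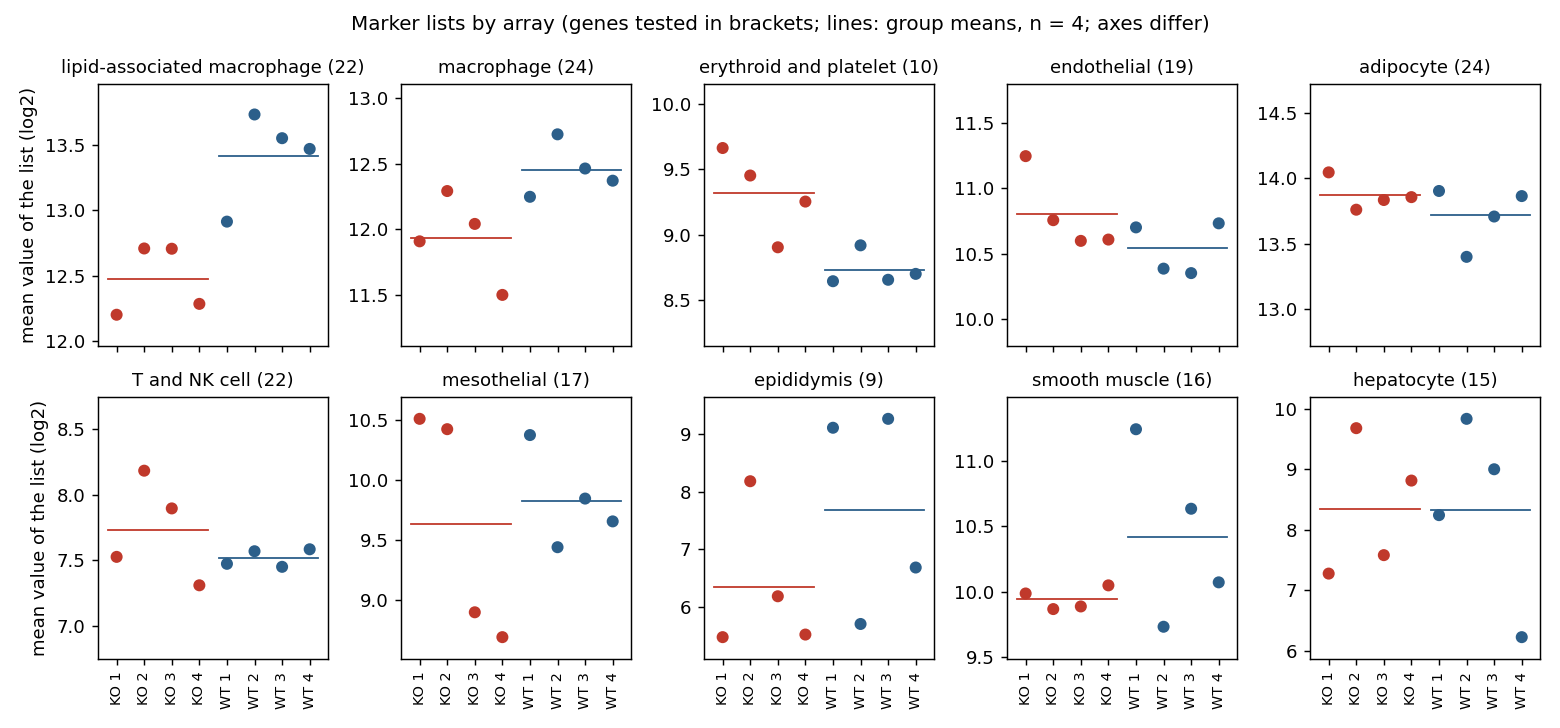
Each panel shows the mean deposited value (log2) of the tested genes of a marker list on each of the 8 fat arrays, with KO arrays in red, WT arrays in blue, group means as lines and axes that differ between panels. Lipid-associated macrophage genes lie between 12.20 and 12.71 on the KO arrays and between 12.91 and 13.73 on the WT arrays, whereas epididymal genes are highest on WT 1 and WT 3 (9.12 and 9.27), followed by KO 2 (8.19), and hepatocyte genes vary within both groups.

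The targeted gene was read by 5 probes. The sequences of the 3 probes on which the groups did not overlap are shown. The call on the gene rests on only 1 of them, since 1 probe was tested for each gene. All 3 lie on the minus strand of chromosome 14 in build mm9. The called one, at chr14:34204748-34204807, is the probe that was tested, and its first 30 bases of 60 are given. The second probe, at chr14:34194834-34194893, is given likewise. The last probe, at chr14:34215865-34215924, is given whole, and 1 of its 3 reading frames on this strand has no stop. The exon or untranslated region under each probe was not analysed here.
tested probe: tttaaacggcttgatagcaaattagacccc
second probe: ccagaggaataagggaaaataacctgtagc
last probe: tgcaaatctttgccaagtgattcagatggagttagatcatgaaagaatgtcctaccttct

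*Mapk8* fell in KO fat and was the only gene called among the 15268 (0.00655%). The tested probe read 5.62, 5.97, 5.81 and 5.38 on KO 1 to 4 and 7.997, 7.65, 7.84 and 7.88 on WT 1 to 4. No KO array reached the lowest WT array, although the spot was well above background on 3 of the 4 KO arrays. KO fat averaged 5.70 ± 0.25 (SD, n = 4) and WT fat averaged 7.84 ± 0.14 (SD, n = 4). The difference of -2.15 (SE 0.151) is 4.42-fold lower, and limma gave it an adjusted p of 0.00528. The second probe read 4.75, 3.83, 4.64 and 4.27 in KO and 6.004, 6.16, 6.02 and 6.004 in WT, and the last read 4.64, 4.58, 4.83 and 4.77 in KO and 5.15, 5.37, 5.30 and 5.31 in WT. The second was well above background on 2 of the 3 WT files and on no KO file, the last on none. The remaining pair of probes overlapped between the groups. Of 23 other ways to process the data, 5 ended the call, and the adjusted p ranged from 0.000779 to 0.9999. Among these were leaving out WT 3 (0.0513), leaving out WT 1 and WT 3 together (0.254, chosen after seeing the data) and the mean of all 5 probes, which gave a difference of -0.99 (0.153). On the only slide that held both groups, KO 2 minus WT 4 was -1.91, that is 5.97 against 7.88. All other KO and WT arrays lay on separate slides, so slide and genotype can hardly be separated. A fit with slide as a fixed block rests on this pair alone.

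**Figure D2:**
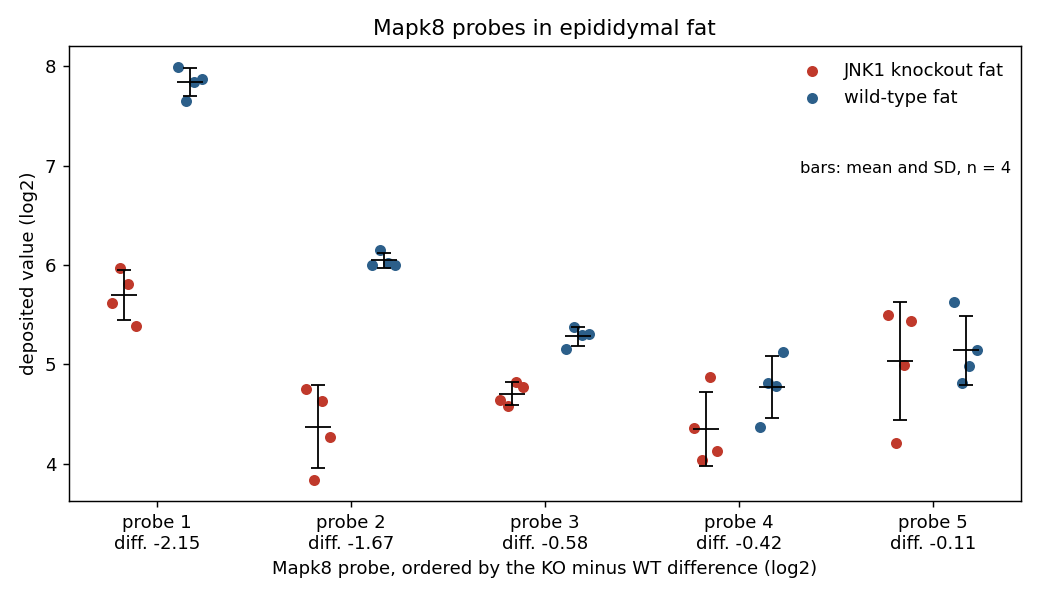
Deposited values (log2) of the 5 *Mapk8* probes on the 4 KO arrays (red) and 4 WT arrays (blue) of epididymal fat, with mean and SD (n = 4) in black and the KO minus WT difference under each probe. The groups are apart on probes 1 to 3, which are the tested, second and last probes of the text, and overlap on probes 4 and 5.

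The other JNK genes did not differ beyond the spread. *Mapk9*, which encodes JNK2, read 7.66, 7.59, 7.76 and 8.21 in KO and 7.83, 8.33, 7.90 and 7.87 in WT. The difference was -0.18 (SE 0.177, adjusted p = 0.693), with overlapping groups. *Mapk10*, which encodes JNK3, was well above background on 1 KO file and no WT file and was not tested. Of 30 components of the pathway on the array 27 were tested, and besides *Mapk8* none was called. At an unadjusted p below 0.05, 3 were higher and 2 lower, where 6.6% of all tested genes were higher and 5.23% lower, and the median of the 27 was 0.03 against 0.02 for all genes. Without KO 4 the list had 1 higher and 2 lower, and without WT 1 and WT 3 it had 0 higher and 1 lower.

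By role, the upstream kinase *Map3k4* differed by 0.30 (adjusted p = 0.417), and the direct activators *Map2k4* and *Map2k7* by -0.12 (0.689) and 0.09 (0.860), the latter being 0.00 with normexp and quantile scaling of the scanner values. A scaffold that holds the kinases together, *Mapk8ip3*, differed by 0.35 (0.367), and its KO arrays read 12.50, 12.43, 12.27 and 12.00 and WT arrays 12.00, 12.02, 11.90 and 11.87. Of the phosphatases that switch JNKs off, *Dusp8* read 7.91, 7.53, 7.89 and 7.69 in KO and 7.97, 8.23, 8.29 and 8.02 in WT, a difference of -0.37 (0.352) with groups that did not overlap. *Dusp16* differed by 0.37 (0.414) and *Dusp1* by 0.09 (0.865).

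Targets at the end of the pathway lay more often on the lower side, with no member called. Among 27 tested immediate-early and AP-1 genes 17 were negative, where 7034 of all 15268 genes were, and the median was -0.08. At an unadjusted p below 0.05, 5 were lower and 0 higher, where 5.23% of all genes were lower and 6.6% higher. *Atf3*, a stress-induced partner of c-Jun, read 11.26, 11.83, 12.00 and 11.14 in KO and 12.03, 12.87, 12.79 and 12.56 in WT, so the groups did not overlap. Its difference was -1.01 (SE 0.256, adjusted p = 0.271). *Jun*, which encodes c-Jun itself, read 9.09, 8.99, 8.87 and 8.58 in KO and 9.04, 9.34, 9.22 and 9.39 in WT, a difference of -0.37 (0.380). *Egr2*, a zinc-finger immediate-early gene, differed by -0.75 (0.359), and *Ccn2*, a matricellular growth factor, by -0.87 (0.383). None of these was called. Without KO 4, 2 members were lower and 1 higher at the same unadjusted threshold, and without KO 1, 3 were lower and 0 higher. Without WT 1 and WT 3, 4 were lower and 0 higher. The letters TGANTCA, a form of the AP-1 motif, were looked for on both strands in the 250 bases before the start of genes in RefSeq. They occurred in 0 of 24 windows and in 6.75% of all 32851 windows. The 24 belong to 17 of 21 genes, which are *Mapk8* and the 20 named below, 10 in each direction by the smallest p.

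Over all genes, the differences were small against the spread. Apart from *Mapk8*, no gene passed in either direction, although 1008 were higher and 798 lower at an unadjusted p below 0.05. All KO arrays lay above all WT arrays for 669 genes (4.38%) and below for 426 (2.79%). A difference beyond 1 log2 unit in size was reached by 363 genes, the median difference was 0.02 and 53.9% of genes were on the higher side. The number of calls depends on how the spread is estimated: when 1 spread was fitted over all 21 arrays of the 3 tissues, 59 genes (0.386%) passed, 13 higher and 46 lower in KO fat, and with weights for the quality of each array 10 passed, 4 higher and 6 lower. Skin and liver were left out of the main fit because their spread is not that of fat, so the 59 calls are no separate support. Among the 46, *Mia*, *Prom1* and *Arg2* were highest on WT 1 and WT 3 and were not tested without these arrays.

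**Figure D3:**
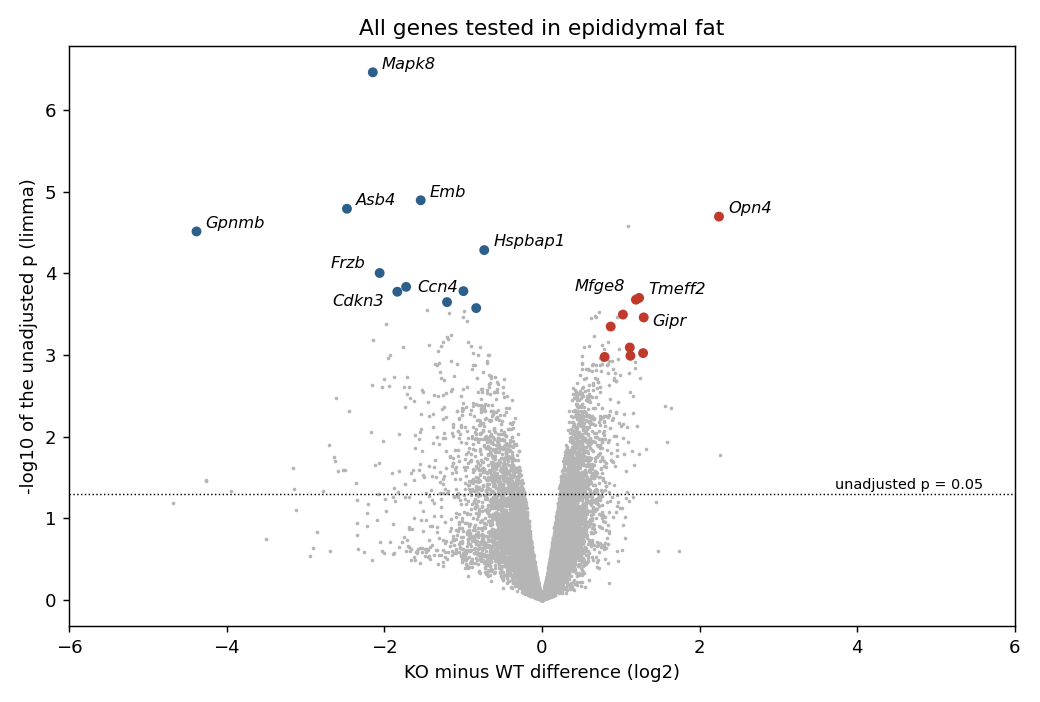
Each grey point is 1 of 15268 genes in epididymal fat, with the KO minus WT difference (log2) on the horizontal axis and -log10 of the unadjusted limma p on the vertical axis. Blue and red points are *Mapk8* and the 10 lower and 10 higher genes with the smallest p that have a gene symbol, and *Mapk8* lies above all others at a difference of -2.15.

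The largest difference among the genes with the smallest p was that of *Gpnmb*, which encodes a transmembrane glycoprotein of lipid-laden macrophages and melanocytes. It read 9.54, 9.98, 10.38 and 9.63 in KO and 12.44, 14.93, 14.86 and 14.83 in WT, with WT 1 well under the other WT arrays and still above every KO array. The difference was -4.38 (SE 0.545, adjusted p = 0.0782), a 20.9-fold lower mean that did not pass the threshold of 0.05. The same probe differed by -4.00 in skin and -4.48 in liver, and the fat difference was not distinguishable from either (adjusted p = 0.848 and 0.995 for the difference of differences). Without WT 1 and WT 3 the fat difference was -4.999.

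Of the 10 lower genes by the smallest p, 3 came nearest to the threshold. *Emb*, which encodes embigin, a membrane glycoprotein that escorts monocarboxylate transporters, read 9.68, 10.15, 9.92 and 9.93 in KO and 11.58, 11.55, 11.66 and 11.03 in WT, a difference of -1.54 (SE 0.171, adjusted p = 0.0772). *Asb4*, which encodes a substrate adaptor of a ubiquitin ligase, read 4.70, 5.65, 5.42 and 6.17 in KO and 7.75, 8.19, 7.93 and 7.97 in WT, a difference of -2.47 (SE 0.283, adjusted p = 0.0772). Besides these, *Gpnmb* is one of the 3, and in each the 4 KO arrays lay under the 4 WT arrays. A pair of genes of Wnt biology followed. *Frzb*, a secreted Wnt antagonist, read 4.25, 4.88, 4.98 and 4.11 in KO, where it was well above background on none of 4 arrays, and 5.86, 7.03, 6.70 and 6.86 in WT. When a group has no array above background only a bound on the fold can be given, set by the background level, so *Frzb* was at least 3.73-fold lower in KO (adjusted p = 0.189). *Ccn4*, a matricellular protein induced by Wnt signalling, read 4.77, 5.45, 5.65 and 5.19 in KO and 6.37, 7.23, 6.94 and 7.41 in WT, a difference of -1.72 (adjusted p = 0.209).

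The other lower genes were *Hspbap1*, *Heatr5a*, *Cdkn3*, *Homer2* and *Ppfibp2*, with adjusted p from 0.114 to 0.209. *Cdkn3*, a phosphatase that acts on cyclin-dependent kinases, read 5.83, 6.19, 6.79 and 6.57 in KO and 7.64, 8.80, 8.29 and 7.999 in WT. It differed by -1.83 in fat, -1.04 in skin and -1.81 in liver. Without WT 1 and WT 3 another of its probes had the highest mean, and that fat difference was -0.39. *Hspbap1* had the tightest values of the group, 6.66, 6.68, 6.70 and 6.68 in KO and 7.52, 7.30, 7.39 and 7.44 in WT. *Homer2*, a scaffold protein of synapses, differed by -1.20, *Heatr5a* by -0.996 and *Ppfibp2*, a liprin, by -0.83. All 10 passed when 1 spread was fitted over the 21 arrays, with adjusted p from 0.000122 for *Asb4* to 0.0440 for *Hspbap1*. Of them *Frzb* entered the test only through the WT group, so its p-values rest on background readings in KO and are no support.

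On the higher side *Opn4*, which encodes the light-sensitive opsin melanopsin, had the smallest p. It read 5.66, 6.68, 6.61 and 6.74 in KO and 3.90, 3.95, 4.42 and 4.45 in WT, where it was well above background on none of the 3 files. It was at least 3.04-fold higher in KO (difference 2.25, SE 0.264, adjusted p = 0.0772). *Mfge8*, a secreted protein that bridges dying cells to phagocytes, read 16.85, 17.45, 17.72 and 17.53 in KO and 16.14, 16.22, 16.03 and 16.39 in WT, and all KO arrays lay above all WT arrays. Its difference was 1.19 (SE 0.193, adjusted p = 0.209). *Gipr*, the receptor of the incretin hormone GIP, read 7.10, 6.52, 6.61 and 7.03 in KO and 5.37, 5.67, 5.07 and 5.98 in WT, a difference of 1.29 (SE 0.225, adjusted p = 0.209).

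Among the rest of the 10, *Tmeff2*, a transmembrane protein with follistatin-like domains, differed by 1.23, *Man2a2*, a Golgi mannosidase of glycan trimming, by 1.03 and the noncoding *Platr26* by 0.87. *Slc6a7*, a proline transporter, differed by 1.28, *Gp9*, a platelet glycoprotein, by 1.12 and *Gzma*, a granule protease of cytotoxic lymphocytes, by 0.80 (at least 1.70-fold, none of the 3 WT files being well above background). Their adjusted p lay between 0.209 and 0.241. *Sp100*, a nuclear-body protein, differed by 1.11 (0.241), but another of its probes had the highest mean once KO 4 was left out, and that difference was 0.11. With 1 spread over the 21 arrays 4 of the 10 passed, namely *Opn4*, *Mfge8*, *Gipr* and *Slc6a7*. *Opn4* and *Gzma* entered the test only through the KO group and were not tested without KO 4. Their p-values rest on background readings in WT and are no support.

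Among the lists, the largest share of lower members at the unadjusted threshold was in that of lipid-associated macrophages, the state that engulfs lipid from dying adipocytes. Of its 22 tested genes 21 were negative, 16 were lower at an unadjusted p below 0.05, where 5.23% of all genes were, and 0 were higher. The median was -0.76, and in 8 genes every KO array lay under every WT array, where 2.79% of all genes did. No member passed over all genes, and 3 (*Gpnmb*, *Mmp12* and *Cd9*) passed with 1 spread over the 21 arrays. Fewer macrophages and less RNA per macrophage cannot be told apart in bulk fat, here and in the groups that follow.

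*Mmp12*, the macrophage elastase, read 7.30, 8.48, 7.91 and 7.33 in KO and 8.81, 10.51, 10.37 and 9.91 in WT, so the groups did not overlap. *Cd9*, a tetraspanin of this macrophage state, read 12.38, 12.49, 12.45 and 11.71 in KO and 13.24, 13.16, 13.26 and 13.13 in WT, again apart. The differences were -2.15 (SE 0.410) and -0.94 (SE 0.181), each with an adjusted p of 0.241. *Lipa*, the lysosomal acid lipase that frees fatty acids from engulfed lipid, read 12.35, 12.63, 12.54 and 11.93 in KO and 12.94, 13.91, 13.47 and 13.46 in WT, a difference of -1.08 (adjusted p = 0.241). *Trem2*, the lipid receptor that defines the state, overlapped, with 14.35, 15.13, 15.27 and 14.53 in KO against 15.03, 15.96, 15.72 and 15.62 in WT (-0.76, adjusted p = 0.346). *Itgax*, which encodes CD11c, differed by -1.24 (0.255), *Spp1*, osteopontin, by -1.76 (0.255) and *Clec7a*, the receptor dectin-1, by -0.92 (0.399). *Acp5*, an acid phosphatase, was the member on the other side, at 0.01 (-0.02 with the scanner values scaled to their percentile), and *Fabp5* was on the array but not well above background often enough to be tested.

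WT 1 was the lowest WT array and KO 1 and KO 4 the lowest KO arrays in this group. The mean of the 22 genes was 12.20, 12.71, 12.71 and 12.29 on KO 1 to 4 and 12.91, 13.73, 13.55 and 13.47 on WT 1 to 4. Without KO 4 the median was -0.71 with 14 lower members, without KO 1 it was -0.62 with 13, and without WT 1 and WT 3 it was -0.996 with 17. In skin the same genes had a median difference of 0.04, with 10 of 22 negative, and in liver -0.25, with 15 negative, neither of which was tested as a list.

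**Figure D4:**
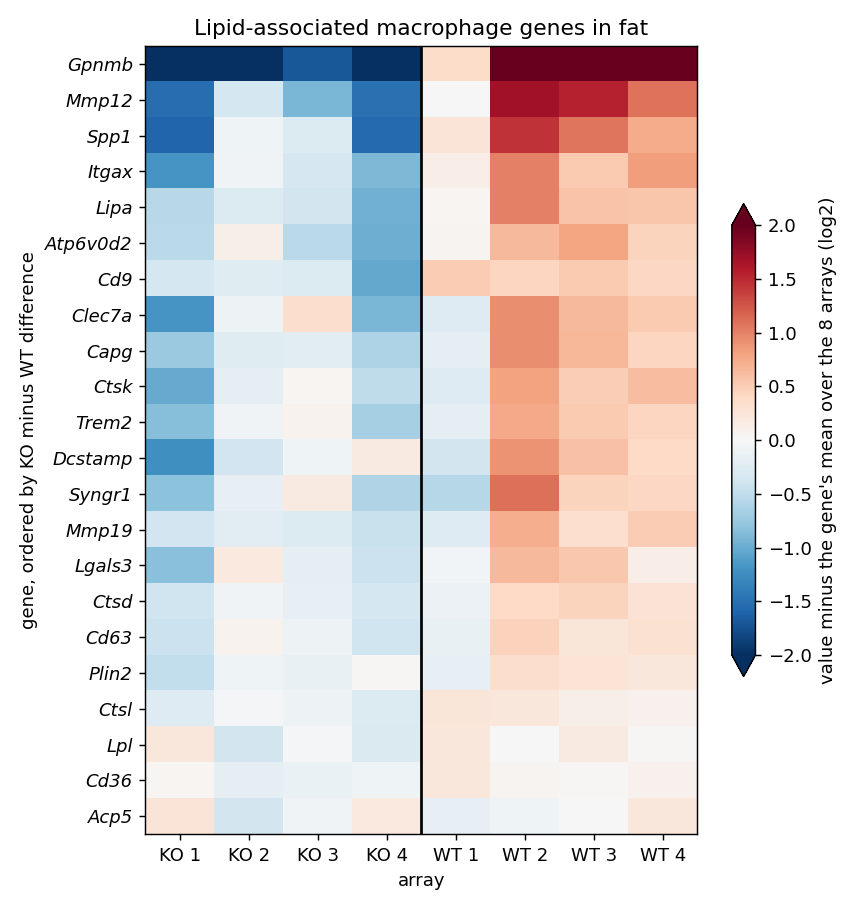
Heat map of the 22 tested lipid-associated macrophage genes (rows) on the 8 fat arrays (columns, KO left of the line and WT right), coloured by the deposited value minus the mean of that gene over the 8 arrays (log2, colours end at 2 units on either side). Most rows are blue on KO 1 and KO 4 and red on WT 2, WT 3 and WT 4, with KO 2, KO 3 and WT 1 near the middle, and *Gpnmb* has the largest difference, -4.38.

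General macrophage markers were less far apart. Of 24 tested, 21 were negative, and the median was -0.59. At the unadjusted threshold 10 were lower and 1 higher, where 5.23% and 6.6% of all genes were. *Itgam*, which encodes CD11b, read 6.68, 7.98, 7.11 and 7.32 in KO and 8.04, 8.65, 8.34 and 8.69 in WT, a difference of -1.16 (adjusted p = 0.255) with no overlap. *Adgre1*, which encodes an adhesion receptor used to mark macrophages, read 12.96, 13.49, 13.52 and 11.67 in KO and 13.78, 14.11, 13.72 and 13.80 in WT, and its -0.94 (0.399) became -0.52 without KO 4. *Cd68*, a lysosomal glycoprotein, differed by -1.66, *Laptm5* by -0.82, *Mpeg1*, which encodes a pore-forming protein, by -0.80 and *Msr1*, a scavenger receptor, by -0.95. The 1 member on the higher side was *Mgl2*, a lectin of alternatively activated macrophages, at 8.10, 7.65, 7.43 and 8.05 in KO and 7.58, 7.03, 7.10 and 6.80 in WT (0.68, adjusted p = 0.309). Without KO 4, 7 members were lower, and without WT 1 and WT 3, 9.

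Of 27 tested matrix and lysosomal proteases, 8 were lower and 0 higher at the unadjusted threshold, where 5.23% and 6.6% of all genes were. The median was -0.29. *Mmp12*, already counted among the lipid-associated macrophage genes, is also a member, so these counts are not separate. *Mmp3*, stromelysin, differed by -1.45 (adjusted p = 0.265), *Ctss*, cathepsin S, by -0.77 (0.274) and *Adam8* by -0.74 (0.293). Of 14 tested genes of NADPH oxidases and related oxidant sources, 8 were negative, 5 were lower and 1 higher. Without KO 4 the list had 3 lower and 3 higher, and without KO 1 it had 3 lower and 1 higher. *Cybb*, the catalytic subunit of the phagocyte oxidase, read 7.43, 8.03, 7.41 and 6.63 in KO and 8.20, 8.42, 8.51 and 8.40 in WT. Its groups did not overlap, and the difference was -1.01 (adjusted p = 0.274). *Ncf1*, a cytosolic subunit, differed by -1.02 (0.274), while *Nos3*, the nitric oxide synthase of endothelium, differed by 0.46 (0.336).

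Antioxidant genes, among them targets of NRF2, the transcription factor that answers oxidants, split in direction. Of 31 tested, 9 were lower and 3 higher at the unadjusted threshold, where 5.23% and 6.6% of all genes were, although the median was 0.10. *Srxn1*, sulfiredoxin, read 11.51, 12.30, 12.49 and 12.03 in KO and 12.43, 13.92, 13.51 and 13.35 in WT, a difference of -1.22 (adjusted p = 0.279). *Gsr*, glutathione reductase, read 10.03, 9.68, 10.01 and 9.76 in KO and 10.23, 10.53, 10.61 and 10.23 in WT, a difference of -0.53 (0.278) with no overlap. *Gclm*, a subunit of the enzyme that starts glutathione synthesis, was at 6.17 on WT 1, no higher than the KO arrays, and at 7.74, 7.43 and 6.97 on the other WT arrays (-1.06, adjusted p = 0.302). The others on the lower side were *Txn1* (-0.67), *Gclc* (-0.43), *Txnrd1* (-0.62), *Prdx1* (-0.93), *Nqo1* (-0.32) and *Hmox1* (-0.90). The 3 on the higher side were *Gstm1* (0.55), a glutathione transferase, *Prdx6* (0.62) and *Nnt* (0.33). *Gstm1* read 15.80, 16.20, 15.84 and 16.06 in KO and 15.79, 15.19, 15.34 and 15.40 in WT, so only WT 1 reached near the KO values. Leaving out KO 4 gave 8 lower and 2 higher, leaving out WT 1 and WT 3 gave 8 and 2, and leaving out KO 1 gave 7 and 6, with a median of -0.04.

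Secreted inflammatory signals were mixed. Of 20 tested cytokine genes 4 were lower and 0 higher at the unadjusted threshold, and of 27 chemokine genes and receptors 3 were lower and 1 higher, where 5.23% of all genes were lower and 6.6% higher. Without KO 4 the cytokine list had 1 lower and 2 higher and the chemokine list 2 and 1. Without KO 1 the chemokine list had 5 lower and 3 higher. *Cx3cl1*, fractalkine, read 8.95, 8.79, 8.34 and 8.06 in KO and 9.59, 9.96, 9.41 and 9.97 in WT, apart by -1.20 (adjusted p = 0.241). *Cxcl14* differed by -1.54 (0.278), *Gdf15*, a stress-induced TGF-beta relative, by -1.10 (0.359) and *Il6* by -0.46 (0.409). *Tnf* and *Ccl2*, which are known products of obese fat, read 6.004, 6.73, 7.46 and 6.53 against 6.10, 7.68, 7.10 and 6.83, and 10.38, 12.50, 12.79 and 12.38 against 11.34, 11.95, 11.57 and 11.35. Their groups overlapped, with differences of -0.25 (0.821) and 0.46 (0.714). *Saa3*, an acute-phase apolipoprotein of inflamed fat, was on the higher side, at 11.39, 12.87, 12.50 and 12.15 in KO and 10.69, 11.01, 11.44 and 11.16 in WT (1.15, adjusted p = 0.278).

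Genes of other leukocytes went separate ways. Of 13 tested neutrophil and mast cell genes 6 were lower and 1 higher at the unadjusted threshold, where 5.23% and 6.6% of all genes were. The mast cell proteases *Mcpt4* and *Cma1* differed by -1.06 (adjusted p = 0.323) and -1.09 (0.357), and *Fcer1a*, a chain of the IgE receptor, by -1.22 (0.325). *S100a9*, a calprotectin subunit of neutrophils, read 12.96, 11.01, 12.02 and 10.36 in KO and 9.95, 9.90, 9.96 and 10.20 in WT, a difference of 1.58 (0.309) with no overlap. Without KO 4 the lower members of this list were 3, and without KO 1 they were 2. Of 22 tested T and NK cell genes 6 were higher and 1 lower, with a median of 0.31, and without WT 1 and WT 3 the higher ones were 2. *Cd3g*, a chain of the T cell receptor complex, read 6.90, 8.24, 7.70 and 7.04 in KO and 6.92, 6.68, 6.45 and 6.77 in WT, so KO 2 and KO 3 stood above the rest (0.76, adjusted p = 0.367). *Cd247*, another chain of it, differed by 0.56 (0.309). B and plasma cell genes had a median of 0.41 with 13 of 16 positive and 0 at the unadjusted threshold in either direction.

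Genes of adipocyte differentiation had members in both directions. Of 26 tested adipogenic regulators 17 were positive, 5 were higher (6.6% of all genes were) and 1 was lower at the unadjusted threshold, with a median of 0.19. Without KO 1 they were 4 and 4, with a median of 0.12. *Pparg*, the master regulator of adipocytes, read 13.66, 13.29, 13.36 and 13.94 in KO and 12.98, 12.63, 12.91 and 12.98 in WT. All KO arrays lay above all WT arrays, with a difference of 0.69 (SE 0.169, adjusted p = 0.255). *Nr1h3*, the oxysterol receptor LXR alpha, differed by 0.41 (0.306) and *Klf15* by 0.65 (0.327), and *Gata2*, a factor that holds preadipocytes back, differed by -0.56 (0.255) with no overlap.

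Mature adipocyte genes were close between the groups. Of 24 tested markers 3 were higher and 0 lower at the unadjusted threshold, where 6.6% and 5.23% of all genes were. Without KO 1 the counts were 4 and 3. *Fabp4*, *Plin1* and *Adipoq* differed by -0.20 (adjusted p = 0.615), 0.38 (0.435) and 0.05 (0.939). *Retn*, which encodes the adipokine resistin, read 15.09, 14.06, 13.93 and 14.42 in KO and 13.49, 13.14, 13.18 and 13.28 in WT, and all KO arrays lay above all WT arrays (1.11, SE 0.244, adjusted p = 0.254). *Lep*, which encodes leptin and follows fat mass, was 10.95 on KO 1 and 13.49, 13.99 and 14.25 on the other KO arrays, against 13.15, 12.62, 12.91 and 13.004 in WT. KO 1 was thus the lowest and the other KO arrays the highest of the 8, and the difference of 0.25 did not pass (0.899). Of the 22 tested genes of fatty acid synthesis 1 was higher and 1 lower, and without KO 1 they were 7 and 1. The higher one on all arrays was *Mlxipl*, which encodes the glucose-sensing factor ChREBP. It read 11.56, 10.95, 10.93 and 11.34 in KO and 10.76, 10.12, 10.21 and 10.30 in WT, again without overlap (0.85, adjusted p = 0.255). *Fasn* and *Scd1*, enzymes of that pathway, differed by 0.45 (0.492) and 0.53 (0.434).

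Mitochondrial lists had small positive medians, where that of all genes was 0.02 and 53.9% of all genes were positive. Their shares of higher members were near or below the 6.6% of all genes. Fatty acid oxidation had 21 of 27 genes positive, a median of 0.09 and 2 higher, the citric acid cycle list 20 of 25, 0.12 and 1, and oxidative phosphorylation 22 of 34, 0.06 and 1. Without KO 1 the oxidative phosphorylation list had 0 higher and 4 lower and a median of 0.00, and the citric acid cycle list 1 higher and 2 lower. Without KO 4 the fatty acid oxidation list had 0 higher and 1 lower. Without WT 1 and WT 3 the medians were 0.152 for fatty acid oxidation, 0.235 for the citric acid cycle and 0.044 for oxidative phosphorylation. The higher members were then 2, 1 and 1. *Bckdhb*, an enzyme of branched-chain amino acid breakdown, differed by 0.48 (adjusted p = 0.290) and *Acaa2*, a thiolase of fatty acid oxidation, by 0.44 (0.395). *Pex11a*, which encodes a protein of peroxisome division, read 12.58, 12.28, 12.37 and 12.68 in KO and 11.96, 11.57, 11.89 and 11.88 in WT. It was 0.65 higher (adjusted p = 0.241) and was among the 13 that passed with 1 spread over the 21 arrays.

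Of 14 tested brown and beige fat genes 8 were negative and 6 positive, with a median of -0.08. At the unadjusted threshold 4 were lower and 0 higher, where 5.23% and 6.6% of all genes were. *Ucp1*, the uncoupling protein of heat-producing adipocytes, read 8.07, 6.53, 7.57 and 7.02 in KO and 9.66, 10.68, 9.13 and 8.37 in WT. The groups did not overlap, and the difference was -2.16 (SE 0.504, adjusted p = 0.255), which passed with 1 spread over the 21 arrays (0.0223). *Fabp3*, a fatty acid carrier of oxidative tissue, read 8.63, 8.39, 8.70 and 8.21 in KO and 9.85, 11.01, 9.51 and 9.09 in WT (-1.38, adjusted p = 0.278), and *Cidea*, a lipid droplet protein, differed by -0.85 (0.306). The fourth, *Cited1*, read 11.53 on WT 1 and 10.77 on WT 3 and 4.68 to 6.06 on the other 6 arrays, and without WT 1 and WT 3 its -3.14 became -0.52, whereas *Ucp1* was then at -2.23. *Ppargc1a*, a coactivator of mitochondrial genes, differed by 0.42 (0.603).

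Insulin signalling and glucose uptake had 4 of 32 tested genes lower and 0 higher at the unadjusted threshold, where 5.23% and 6.6% of all genes were. The median was positive, at 0.11. Without WT 1 and WT 3 the list had 1 lower and 2 higher, and without KO 1 it had 3 lower and 1 higher and a median of 0.01. *Slc2a1*, the basal glucose transporter GLUT1, read 8.70, 9.60, 9.05 and 9.16 in KO and 9.78, 9.70, 9.998 and 10.12 in WT, a difference of -0.77 (adjusted p = 0.274) with no overlap. *Ptpn1*, the phosphatase PTP1B that switches off the insulin receptor, read 12.32, 12.57, 12.49 and 11.31 in KO and 12.78, 12.94, 12.84 and 12.96 in WT, and its -0.70 (0.367) became -0.41 without KO 4. *Grb14*, an adaptor that inhibits the receptor, differed by -0.78 (0.340). *Slc2a4*, the insulin-responsive transporter GLUT4, and *Irs1*, an insulin receptor substrate, overlapped between the groups and differed by 0.37 (0.628) and 0.24 (0.794).

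Red cell and platelet genes had the largest share of higher members among the 47 lists at the unadjusted threshold, 6 of 10 tested against 6.6% of all genes, with 0 lower and a median of 0.77. *Alas2*, the erythroid enzyme of haem synthesis, read 13.10, 12.98, 12.27 and 12.58 in KO and 11.74, 11.92, 11.89 and 11.83 in WT. All KO arrays lay above all WT arrays, and the difference was 0.89 (SE 0.185, adjusted p = 0.241). *Hba-a1*, an alpha globin whose near-identical copies the probe may not tell apart, differed by 0.64 (0.255) and *Ppbp*, a platelet chemokine, by 0.92 (0.254). The mean of the 10 genes was 9.66, 9.45, 8.91 and 9.26 on KO 1 to 4 and 8.65, 8.92, 8.66 and 8.70 on WT 1 to 4, so KO 3 lay within the WT range. Endothelial genes had 17 of 19 positive, 4 higher and 0 lower, with a median of 0.32. Without WT 1 and WT 3, 1 was higher, and without KO 1, 3 were, with a median of 0.17. *Egfl7*, a secreted endothelial factor, read 13.03, 12.72, 12.95 and 12.98 in KO and 12.62, 12.60, 12.51 and 12.37 in WT (0.39, adjusted p = 0.302), and *Gpihbp1*, which carries lipoprotein lipase across capillaries, differed by 0.49 (0.322).

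Matrix genes were on the lower side, with 24 of 34 negative and a median of -0.18. At the unadjusted threshold 5 were lower and 0 higher, where 5.23% and 6.6% of all genes were. *Col8a1*, a short-chain collagen, read 10.61, 10.71, 10.74 and 10.90 in KO and 11.44, 12.39, 11.60 and 12.13 in WT, apart by -1.15 (SE 0.215, adjusted p = 0.241). *Bgn*, biglycan, differed by -0.73 (0.273), *Postn*, periostin, by -0.56 (0.314) and *Col3a1* by -0.66 (0.322). Cell cycle genes had 22 of 27 negative and a median of -0.29, with 1 higher and 1 lower at the unadjusted threshold. Leaving out KO 1 brought that median to -0.03, and leaving out WT 1 and WT 3 brought it to -0.49 with 0 higher and 3 lower. Lists near the background were ER stress (28 tested, 0 and 0, but 1 higher and 4 lower without KO 1), triglyceride assembly (18, 0 and 0), the interferon response (27, 2 higher and 0 lower) and cholesterol synthesis (23, 0 higher and 2 lower, but 3 and 1 without KO 1), where *Sqle* differed by -0.55 (0.399). Smooth muscle genes had 3 lower of 16, but without WT 1 and WT 3 they had 0, and the median turned from -0.43 to 0.07. Testis, keratinocyte and Schwann cell lists had at most 10 tested genes each.

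**Figure D5:**
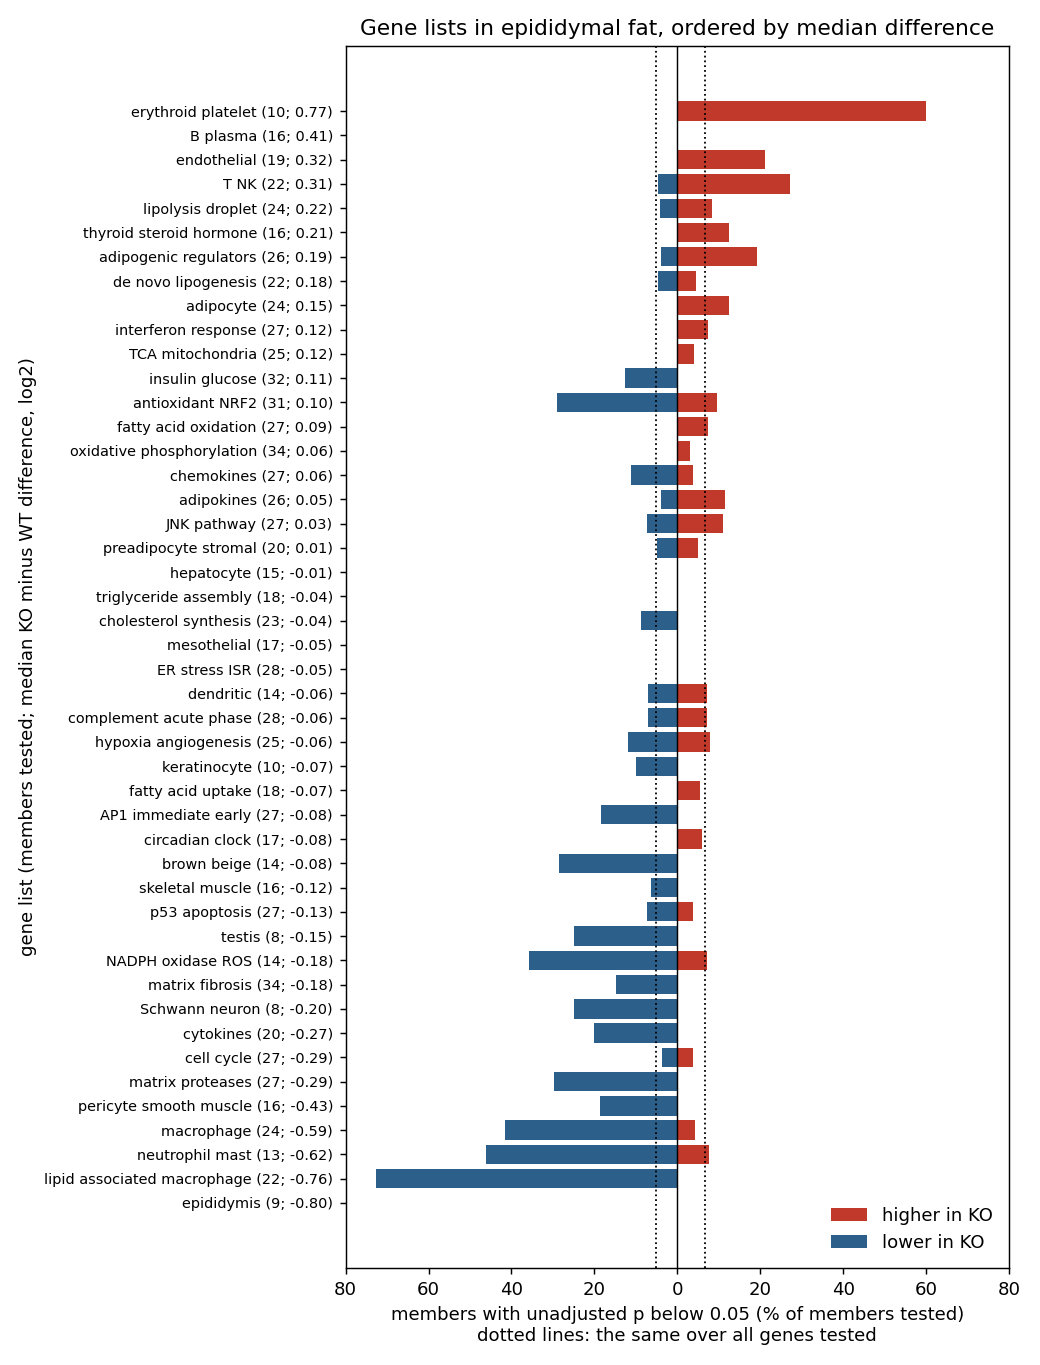
For each gene list, bars give the share of its tested members (%) with an unadjusted p below 0.05, to the right where higher in KO and to the left where lower, with the number tested and the median difference (log2) in brackets and lists in the order of that median. Dotted lines mark the shares over all genes (6.6% and 5.23%), and the longest bars are lipid-associated macrophage genes on the left (16 of 22) and red cell and platelet genes on the right (6 of 10).

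Genes near the targeted locus were looked at because they lie beside the targeted gene. Of 91 tested genes within 10 Mb of the *Mapk8* probe, 8 were higher and 5 lower at the unadjusted threshold, near the 6.6% and 5.23% of all genes, and the median was 0.00. Without KO 1, 9 were higher and 9 lower. *Opn4*, described above, is one of them, with its probe at 35405835 on chromosome 14. *Anxa8*, an annexin whose probe starts at 34913661, read 12.27, 12.25, 11.74 and 11.02 in KO and 10.82, 10.41, 10.72 and 10.38 in WT, above all WT arrays by 1.24 (adjusted p = 0.254). *Wdfy4*, which has a part in antigen presentation, differed by -0.82 (0.254) in fat, -0.89 in skin and -0.40 in liver. *Stimate*, a regulator of calcium entry, differed by 0.40 (0.255).

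The KO minus WT difference was then set against that of the other tissues in 1 fit of all 21 arrays. For each gene this fit used 1 spread over all tissues, although the spread of skin and liver is not that of fat. The counts and p-values for fat against skin and for fat against liver carry that limit. Between fat and skin the KO minus WT difference was not the same for 104 of 16030 genes (0.649%), 15 with the higher and 89 with the lower difference in fat. The 5 with the smallest p were keratin-associated and hair genes of skin, such as *Krtap16-3*, which differed by 5.15 in skin and -0.41 in fat. *Krtap16-3* was well above background on 1 KO and 2 WT files of fat. *Krtap21-1*, *Krtap19-2* and *Krtap6-2* were so on no fat file, so their fat values are background readings and no measure of a fat difference. Of the 20 genes with the smallest p in fat, 6 passed. The 20 were picked by the same fat values that enter this difference. That choice favours their passing, so it is no separate support. *Emb* differed by -1.54 in fat and 0.17 in skin (adjusted p = 0.0132) and *Ccn4* by -1.72 and 0.68 (0.00998). *Slc6a7* (0.0440) and *Sp100* (0.0490) passed as well. The other 2 were *Frzb* and *Opn4*, each of which entered the test only through 1 fat group, with no array of the other above background, so their fitted values rest on background readings and are no support for a difference between tissues.

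Between fat and liver 11 of 15938 genes passed (0.069%), 8 with the higher and 3 with the lower difference in fat. The 5 with the smallest p had differences beyond 2 units in liver and small ones in fat, such as *Abcb1b*, a drug efflux transporter, at -3.26 in liver and 0.23 in fat. For *Lrit1*, *A930038B10Rik* and *Reg2* among them, no fat file was well above background. Their small fat values are thus background readings and no measure of a fat difference. The probes of *Lrit1* and *A930038B10Rik*, at 37878039 and 35579050 on chromosome 14, lie within 10 Mb of the *Mapk8* probe. Whether position has a part in their liver differences was not tested. Of the 20 genes, again picked by their fat values, *Asb4* passed, at -2.47 in fat and -0.26 in liver (adjusted p = 0.0261). *Opn4* passed too, with the same limit of background readings as against skin. *Mapk8* itself was not shown to differ between tissues, at -2.15 in fat, -1.02 in skin and -1.66 in liver (0.236 and 0.888).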

How the data were processed

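RNA of 21 samples was read on single-colour Agilent arrays, and the 8 fat samples were used, with skin and liver only for differences between tissues. The authors deposited log2 values for 41174 probes. Per the submitters' processing notes, Feature Extraction 10.7.3.1 and limma were used, but the order and the normalization of the log2 table are not given in the sources used here, so its scaling and centring stay unknown. The fat columns have medians of 5.83, 5.91, 5.80 and 5.76 (KO) and 5.86, 5.81, 5.83 and 5.82 (WT). Per the file headers, the scanner files hold intensity per spot and flags for spots well above background. The scanner file of WT 2 correlated with its own column at 0.779, against at least 0.972 for the others, and was not used.

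Fits used limma 3.58.1 under R 4.3.3, and tables were read with data.table version 1.17.8. A single probe was kept for each of 27373 gene names (9020 had several), that with the highest mean over the columns used. Probes well above background on at least 3 of the 7 fat files were fitted with lmFit and eBayes and adjusted by the Benjamini-Hochberg method. Of the probes, 27816 matched RefSeq, giving 18952 genes. The fat differences were set against skin and liver in a fit of the group means over all 21 arrays. Replicate numbers did not pair the samples throughout. With group means removed, KO 1 and WT 1 correlated at 0.249, against up to 0.049 for KO 1 with other WT arrays. Numbers 2 to 4 gave 0.062, 0.013 and -0.002, each under the highest with another number (0.101, 0.17 and 0.095). The highest correlation of any 2 arrays was 0.987, and 0 columns of per-sample values were unused. The number of arrays limits the precision. In data simulated for the fat comparison on 15268 genes, 100 genes were changed by 1 log2 unit and 100 by 2. Of these 67% and 90% were recovered, with 4 false calls. The simulated noise was independent for each value and held no shifts of whole arrays such as those seen here. With so many changed genes the adjusted threshold is also easier to pass. The recovered shares are therefore no measure of the power of the real comparison, where 1 gene was called.

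Named genes are the JNK genes, every called gene, the 10 with the smallest p in each direction that have a symbol, up to 4 of each list, up to 5 of each difference between tissues and called genes within 10 Mb of *Mapk8*. Further list members were named after their values were seen. Members and lists were chosen with earlier results of these data known. Alternatives were other normalizations, probe filters and probe rules, other moderation of errors, array weights, slide and replicate blocks, and leaving out arrays.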

Additional observations from a re-analysis of the deposited data

Results flagged for a closer look

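Among 242 groups of 4 arrays checked for 121 genes, 12 held an array with a gap to its neighbours beyond a cut that chance passes in about 1 in 20 groups. That is about as many as chance alone would give, so the arrays below are listed only as values to look at. KO 4 stood apart for *Cd247* (7.198, the others from 7.78), *Cd9* (11.71, the others from 12.38) and *Platr26* (7.37, the others up to 6.93). KO 1 stood apart for *Adipoq* (17.22, the others up to 16.52), *Ccl2* (10.38, the others from 12.38) and *Opn4* (5.66, the others from 6.61). WT 1 did so for *Gpnmb* (12.44, the others from 14.83), *Man2a2* (11.03, the others up to 10.61) and *Cd247* (7.35, the others up to 7.04). The remaining 3 were *Gzma* on WT 3 (5.69, the others up to 5.26), *Gpihbp1* on WT 4 (13.35, the others up to 12.998) and *Mapk9* on WT 2 (8.33, the others up to 7.90).

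The KO minus WT difference was not the same in fat as in another tissue for several named genes, by limma's test of the difference of differences. Fat minus skin was -5.56 for *Krtap16-3*, -2.40 for *Ccn4*, -1.70 for *Emb* and -2.22 for *Frzb*. It was 2.12 for *Anxa8* (adjusted p = 0.0160), 1.88 for *Opn4*, 1.53 for *Alas2* (0.0199), 1.39 for *Slc6a7* and 1.64 for *Sp100*. Fat minus liver was 3.49 for *Abcb1b*, 1.28 for *Pex11a* (0.00667), 2.20 for *Opn4* and -2.21 for *Asb4*. For *Opn4* and *Frzb* 1 fat group had no array above background, so these values rest on background readings there.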

How the results depend on the processing

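The direction of *Mapk8* held in all 23 alternatives, and 18 kept its adjusted p below the threshold. The 5 others were the mean of its probes (-0.99), slide as a fixed block (-1.91), the replicate block (-2.15, adjusted p = 0.168), leaving out WT 3, and leaving out WT 1 and WT 3 (-2.07). Slide as a fixed block compares only KO 2 with WT 4, 1 array against 1, so its results say little. Leaving out 1 array gave -2.24 to -2.04. The replicate block, for numbers that do not pair the samples beyond replicate 1, left 0 genes called in fat. It left 119 for fat minus skin and 14 for fat minus liver.

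The count of 1 gene called in fat became 2 with either scaling of scanner values, with trend and robust moderation, and without KO 1 and KO 4. It became 10 with array weights, 59 with all 21 arrays in the fit, and 0 with probes well above background on all arrays, the mean of probes or slide as a fixed block. *Mapk8* was not tested under that stricter filter. Leaving out 1 array gave 0 (without WT 3) to 4 (without KO 1). The 104 genes of fat minus skin became 67 with percentile scaling, 61 with the stricter filter, 444 with array weights, 51 without WT 1 and WT 3 and 37 without KO 1 and KO 4. Leaving out 1 array gave 39 (skin WT 1) to 192 (skin KO 4). The 11 genes of fat minus liver became 7 with the stricter filter and 91 with array weights, and leaving out 1 array gave 6 (liver WT 1) to 40 (liver WT 3). The tissue differences were not run with each probe on its own or with slide as a fixed block. The cause of these shifts was not tested.

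Among single genes, none of which was called, the sign turned in some alternatives. With slide as a fixed block, that is KO 2 against WT 4 alone, it turned for *Acp5* (-0.595), *Adipoq* (-0.202), *Crisp1* (0.41), *Fasn* (-0.043), *Gpihbp1* (-0.032), *Irs1* (-0.22), *Map2k7* (-0.018), *Nos3* (-0.058) and *Ppargc1a* (-0.011). With array weights it turned for *Acp5* (-0.16), *Adipoq* (-0.048) and *Tnf* (0.009), and with the mean of probes for *Abcb1b* (-0.083) and *Irs1* (-0.056). Without KO 1 and KO 4 it turned for *Acp5* (-0.21), *Adipoq* (-0.12), *Irs1* (-0.17), *Sp100* (-0.083) and *Tnf* (0.17), and without WT 1 and WT 3 for *Acp5* (-0.061). Scanner values turned *Acp5* (-0.02, percentile) and *Map2k7* (-0.004, normexp). Leaving out 1 array gave -0.07 to 0.14 for *Acp5*, -0.13 to 0.15 for *Adipoq*, -0.015 to 0.47 for *Irs1*, -0.11 to 0.99 for *Lep*, -0.023 to 0.23 for *Map2k7* and -0.52 to 0.005 for *Tnf*. Of the list medians under alternatives, 58 moved by more than the spread and 882 did not. The alternatives that leave out 2 arrays were chosen after seeing the data. The signal over background limits *Mapk10* and the dimmer *Mapk8* probes.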
